A study of Mus musculus with 160 samples.

Results

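Transcripts of 10 genes that make, break down and read retinoic acid were followed in RNA-seq of the mouse distal colon, out of 39179 genes counted. The 10 genes were chosen by the log2 fold change of *Cyp26b1* between libraries labelled knockout and wild type in the *Dok3* line, together with its partners in the pathway: *Aldh1a1*, *Aldh1a2* and *Aldh1a3* for synthesis, *Cyp26a1*, *Cyp26b1* and *Dhrs3* for breakdown and storage, the receptors *Rara*, *Rarb* and *Rarg*, and the nuclear receptor *Nr2f2*. All 10 were found in the count files by their Ensembl identifiers, and 9 had enough counts to be tested. The question was whether *Cyp26b1* and its partners differed between knockout and wild type in the *Dok3* line, and how the genes varied elsewhere in the series.

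Retinoic acid is made from dietary vitamin A in successive oxidations. Retinol dehydrogenases form retinal, and the retinaldehyde dehydrogenases encoded by the *Aldh1a* genes oxidize retinal to retinoic acid. *Dhrs3* encodes an enzyme that reduces retinal back to retinol, and the cytochrome P450 enzymes encoded by *Cyp26a1* and *Cyp26b1* inactivate retinoic acid. The receptors RARα, RARβ and RARγ bind DNA as partners of retinoid X receptors, typically at direct repeats of a short half-site. In the gut, retinoic acid from epithelium, stroma and dendritic cells is known for directing lymphocytes to the mucosa.

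The proximal promoters of *Rarb* and of both *Cyp26* genes are shown because they hold, or do not hold, the response element by which retinoic acid is known to regulate its own receptor and breakdown. In RefSeq promoters on GRCm38.p6, 9 of the 10 genes were matched, with 16 start sites among them. A direct repeat of the half-site AGGTCA, in which AGTTCA counted too, as did GGGTCA and also GGTTCA, with a spacer of 5 bases (DR5), searched on both strands, was found in 32 of 32851 promoters (0.0974%), and *Rarb* and *Cyp26a1* each had 1. Each sequence is a window of 300 bases on the strand of its gene, with the DR5 in capitals.
*Rarb* (chr14:16575427-16575726, minus strand): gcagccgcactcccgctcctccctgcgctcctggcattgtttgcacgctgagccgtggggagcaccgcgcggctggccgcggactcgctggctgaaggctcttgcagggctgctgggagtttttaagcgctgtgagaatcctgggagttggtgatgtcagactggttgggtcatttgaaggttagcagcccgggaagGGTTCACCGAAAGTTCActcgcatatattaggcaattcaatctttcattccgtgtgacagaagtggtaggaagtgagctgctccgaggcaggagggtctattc
*Cyp26a1* (chr19:37697558-37697857, plus strand): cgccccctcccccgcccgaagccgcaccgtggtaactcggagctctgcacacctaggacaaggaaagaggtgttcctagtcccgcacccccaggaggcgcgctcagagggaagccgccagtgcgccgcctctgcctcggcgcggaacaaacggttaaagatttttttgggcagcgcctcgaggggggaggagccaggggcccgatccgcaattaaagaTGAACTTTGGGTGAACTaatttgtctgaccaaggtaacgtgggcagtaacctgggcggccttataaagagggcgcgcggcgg
*Cyp26b1* (chr6:84593761-84594060, minus strand): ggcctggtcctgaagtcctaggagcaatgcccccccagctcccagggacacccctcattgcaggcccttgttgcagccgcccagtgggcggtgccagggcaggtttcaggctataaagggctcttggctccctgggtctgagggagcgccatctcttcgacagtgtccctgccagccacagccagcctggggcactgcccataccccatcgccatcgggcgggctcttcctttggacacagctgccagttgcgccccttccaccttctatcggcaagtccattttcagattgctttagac
The repeat lies from -53 to -37 relative to the start in *Rarb*, and from -32 to -16 in *Cyp26a1*, where it reads on the opposite strand. No DR5 is in this window of *Cyp26b1*. Repeats with spacers of 1 base (0.222% of promoters) and 2 bases (0.268%) were in none of the 16.

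The 160 libraries came from 4 lines of homozygous knockout mice and their wild-type controls: *Nckap1l* (also Hem1) with 16 knockouts beside 15 controls, *Dock2* with 18 beside 24, *Gpsm3* with 20 beside 20, and *Dok3* with 26 beside 21. The labels give the strain as C57BL6/J for the first 3 lines and 129 for *Dok3*. Mice of the *Gpsm3* and *Dok3* lines were labelled male, whereas 4 knockout and 8 wild-type mice of the *Nckap1l* line and 8 and 12 of the *Dock2* line were female. Colitis was induced with dextran sulfate sodium (DSS), a polymer that injures the colonic epithelium, at 3% in the *Dock2* and *Gpsm3* lines and 3.5% in the *Dok3* line. No dose is labelled for *Nckap1l*, for which the study's methods give a lower one. The methods also describe an earlier round at 3% for *Dok3* mice, so this line may hold both doses, and its labels do not tell the rounds apart. The colon was collected on day 12 for *Nckap1l* mice and day 10 for all others. The sources used here do not say which mice received DSS, so treated and untreated mice stay together in every group. The methods describe constitutive knockouts kept by heterozygote crosses, with littermates of mixed genotypes. Total counts ran from 4344988 to 19993833 per library, so that 3 counts corresponded to 0.15 to 0.69 CPM, the counts scaled to the size of each library. Levels below are CPM after a further TMM scaling between libraries, which this floor does not include.

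The makeup and the labels of some libraries touch the results below. In 33 of the 160, marker RNA of skin or striated muscle exceeded both 10 times the median and 50 CPM. The summed level of 10 skin markers, keratins of stratified epithelium among them, had a median of 4412 CPM in these 33 (13.47 to 14620) and of 12.68 CPM (7.381 to 71.46) in the other 127. The lowest of the 33 passed on striated muscle markers instead. Among the other 127, *Krtdap* was at 0 in 23 and *Krt1* in 16. The 33 made up 8 of 15 wild types and 8 of 16 knockouts in the *Nckap1l* line, 4 of 24 and 1 of 18 in *Dock2*, 1 of 20 and 2 of 20 in *Gpsm3*, and 5 of 21 and 4 of 26 in *Dok3*. They are referred to as skin-marker libraries. All 11 colon epithelium markers were detected, with a summed level of 2208 to 21570 CPM.

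The targeted genes were read in every group. *Gpsm3* was lower in its knockouts (0.793 ± 0.838 CPM, SD, n = 20) than in wild types (3.38 ± 1.41, n = 20), as was *Nckap1l* in its line (20.9 ± 18.3, n = 16, against 42.9 ± 31.4, n = 15) and *Dock2* in its own (24.4 ± 10.2, n = 18, against 37.5 ± 13.5, n = 24). *Dok3* was at 4.38 ± 7.39 CPM (n = 26) in libraries labelled knockout and at 6.10 ± 5.92 CPM (n = 21) in those labelled wild type. The sample numbers of the *Dok3* line fall into 2 blocks. In block 1 *Dok3* averaged 5.74 CPM in 17 libraries labelled knockout and 3.82 CPM in 13 labelled wild type, with 1 library labelled knockout at 39.6 CPM. Without that library the knockout average was 3.63 CPM (n = 16), just below that of wild type. The median of these 16 was still above that of wild type, at 3.785 CPM against 2.46 CPM (n = 13). In block 2 the averages were 1.81 CPM (n = 9) and 9.81 CPM (n = 8). For 5 libraries of this line, all labelled male, the sex-linked transcripts went against the label.

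Among the breakdown and storage genes, *Dhrs3* was the most abundant of the 10 per length, with a median of 16.9 CPM per kilobase of exon over 160 libraries. *Cyp26b1* (ENSMUSG00000063415, GRCm38 chromosome 6 from 84571414 to 84593908) had a median of 0.620 CPM per kilobase, and *Cyp26a1* (ENSMUSG00000024987) of 0.0296. *Cyp26a1* had 3 or fewer counts in 153 libraries and none in 71, with a maximum of 0.456 CPM, so its level could not be told from the detection floor.

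Of the receptors, *Rara* stood at a median of 9.95 CPM per kilobase, *Rarg* at 5.29 and *Rarb* at 1.39, and *Nr2f2*, which represses transcription at related repeats, at 5.87. *Rarb* overlaps *Top2b* on the opposite strand, and whether the counting used strand is not given in the sources used here, so its reads may be shared with that gene. *Aldh1a1* and *Rara* also overlap another annotated gene each, *Gm6684* on the opposite strand and *Gm22061* on the same strand.

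For synthesis, *Aldh1a3* and *Aldh1a1* had similar medians, 7.27 and 6.70 CPM per kilobase, and *Aldh1a2* had 1.03. Their order changed from mouse to mouse. *Aldh1a3* exceeded *Aldh1a1* per kilobase in 75 of 160 libraries, and *Aldh1a2* did so in 6. In CPM, *Aldh1a3* ranged from 8.74 to 508.8, *Aldh1a1* from 11.5 to 141.3 and *Aldh1a2* from 0.429 to 11.5.

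In the *Dok3* line, *Cyp26b1* ran from 1.08 to 108.6 CPM (median 5.46, n = 21) in libraries labelled wild type and from 1.68 to 26.1 CPM (median 3.76, n = 26) in those labelled knockout. The groups overlapped over most of their range, and 1 library labelled wild type lay far above all others. *Dok3* itself was at 2.42 CPM in that library, within the range of block 2 libraries labelled knockout (1.09 to 3.38 CPM), as it was in the wild-type-labelled library at 24.8 CPM of *Cyp26b1* (2.46 CPM). The log2 fold change was -1.16 (standard error 0.397), a level 0.448 times that of wild type. This contrast was used to choose the genes, so the value is a description with no test. Over all genes it called 0.0% of 17612 at an adjusted p under 0.05 in edgeR's quasi-likelihood test, with 386 genes at an unadjusted p under 0.05, and DESeq2 and limma-voom also called 0. In block 2 alone 17 genes were called and 2838 had an unadjusted p under 0.05, and in block 1 alone 0 and 161. In bulk tissue, fewer cells of a type and less RNA per cell cannot be told apart.

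**Figure D1:**
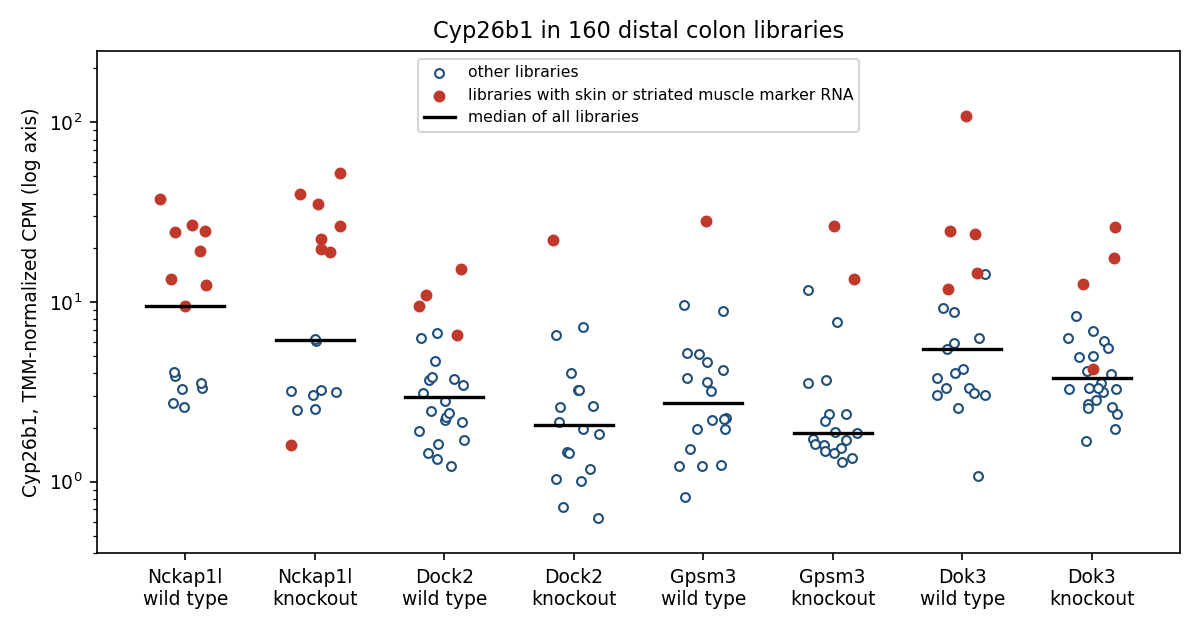
*Cyp26b1* in TMM-normalized CPM on a log axis for each of 160 libraries by line and genotype, with skin-marker libraries as filled red points, others as open points and the median of all libraries as a bar. The highest library of each group is a skin-marker library, up to 108.6 CPM in a *Dok3*-line wild type.

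The difference in *Cyp26b1* rested on few libraries. Of the 6 highest libraries labelled wild type, 5 were skin-marker libraries, at 11.8, 14.6, 23.8, 24.8 and 108.6 CPM, and 1 was not, at 14.4 CPM. The 4 skin-marker libraries labelled knockout were at 4.24, 12.5, 17.5 and 26.1 CPM. Without these 9 libraries the levels were 5.09 ± 3.30 CPM (SD, n = 16) in libraries labelled wild type and 3.99 ± 1.73 CPM (n = 22) in libraries labelled knockout.

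On the log2 scale the fold change of *Cyp26b1* was -0.36 (standard error 0.232) without the skin-marker libraries and -0.40 (0.249) with the skin marker score as a covariate. It was -0.46 (0.323) without the single library at 108.6 CPM, whose summed skin markers reached 10810 CPM. With the inflammation score as a covariate it was -1.22 (0.379) and with the block as a covariate -0.92 (0.409). With the epithelium and smooth muscle marker scores as covariates it was -0.42 (0.255). Over all libraries of the line it was -1.15 (0.377) in DESeq2 and -0.58 (0.350) in limma-voom. In block 1 the fold change was -0.22 (0.427) and in block 2, which holds that library, -2.09 (0.674). In block 2 the levels were 21.9 ± 35.7 CPM (SD, n = 8) in wild types and 5.30 ± 3.38 CPM (n = 9) in libraries labelled knockout, and without skin-marker libraries 6.98 ± 4.08 (n = 6) and 4.4 ± 2.16 (n = 8). The summed level of skin markers in the line was 10.2 to 10810 CPM in wild types (median 20.4) and 7.80 to 14620 CPM in libraries labelled knockout (median 16.04). None of the 8 skin markers tested passed the threshold between them, where 0 of all 17612 genes did. Their median log2 fold change was -0.72, and that of the 9 striated muscle markers tested was -1.1.

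The other 8 tested genes had log2 fold changes from -0.37 (*Rarg*, standard error 0.257) to 0.13 (*Aldh1a1*, 0.198) in the *Dok3* line, beside a median of -0.00010 over all genes. *Rarg* ran from 16.8 to 128.5 CPM (median 24.9) in wild types and from 12.7 to 115.2 CPM (median 24.8) in libraries labelled knockout. Its fold change without the skin-marker libraries was -0.078 (0.100). For *Aldh1a3* it was -0.34 (0.403), with medians of 65.9 CPM (20.1 to 465.0) in wild types and 37.3 CPM (17.3 to 409.8) in libraries labelled knockout, and -0.65 (0.375) without the skin-marker libraries. The groups overlapped for every one of these genes. The remaining fold changes were 0.084 for *Aldh1a2* (standard error 0.318), -0.067 for *Rara* (0.0828), -0.049 for *Rarb* (0.114), -0.040 for *Dhrs3* (0.127) and -0.098 for *Nr2f2* (0.0559). Of 59 other retinoid pathway genes, 52 were tested in this contrast and 0 passed the threshold in edgeR, with a median log2 fold change of -0.0036.

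**Figure D2:**
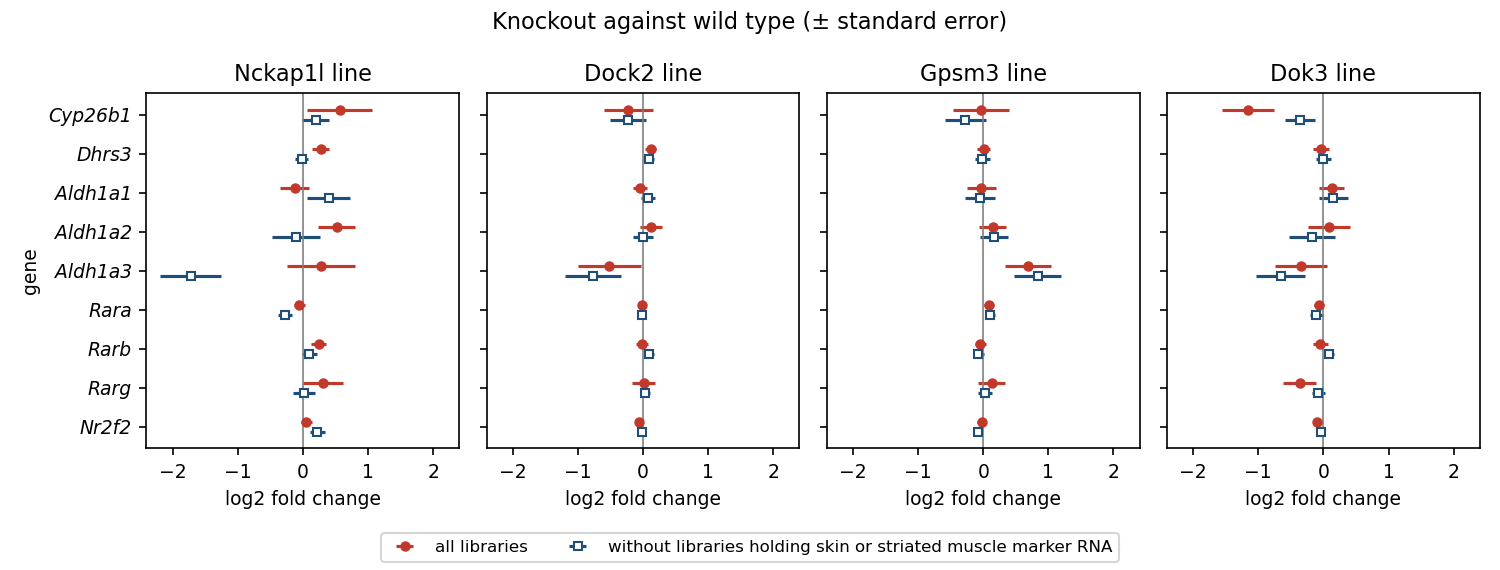
Log2 fold change of knockout against wild type for the 9 tested genes in each line, with standard errors, from all libraries (filled circles) and without the skin-marker libraries (open squares). In the *Dok3* line *Cyp26b1* moves from -1.16 to -0.36.

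*Cyp26b1* and *Rarg* stood out in the skin-marker libraries of all lines. *Cyp26b1* had a median of 19.8 CPM (1.599 to 108.6) in the 33 and of 3.05 CPM (0.628 to 14.4) in the other 127, a ratio of 6.48, and 32 of the 33 lay above the median of the others. The exception is the library that passed on striated muscle markers alone. *Rarg* had medians of 62.1 CPM (18.1 to 128.5) and 21.2 CPM (10.6 to 35.9), a ratio of 2.93. The ratio was 2.53 for *Aldh1a3*, 1.42 for *Aldh1a2* and 1.39 for *Rarb*, and from 0.934 to 1.09 for *Aldh1a1*, *Rara*, *Dhrs3* and *Nr2f2*.

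The levels also followed the amount of skin marker RNA within these libraries. Log2 CPM was set against the skin marker score after the mean of each line was subtracted from both. Over the 33, *Cyp26b1* correlated with the score with Pearson's r = 0.767 (adjusted permutation p = 6.67e-05) and Spearman's rho = 0.653 (adjusted permutation p = 0.0003). Its r was 0.573 without the 2 libraries farthest from the median score. For *Rarg*, r was 0.826 (adjusted permutation p = 6.67e-05), rho 0.856 (adjusted p = 0.0001) and r 0.877 without those 2. Within lines the r of *Cyp26b1* was 0.89 among *Nckap1l* and 0.707 among *Dok3* libraries, and the other lines held too few. Over the other 127 libraries, r was 0.0731 for *Cyp26b1* and 0.184 for *Rarg* (adjusted permutation p = 0.568 and 0.0981). In all, 20 correlations were computed with line means subtracted, and values were permuted across lines. The smallest p that 100000 permutations can give is 1e-05 before adjustment.

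**Figure D3:**
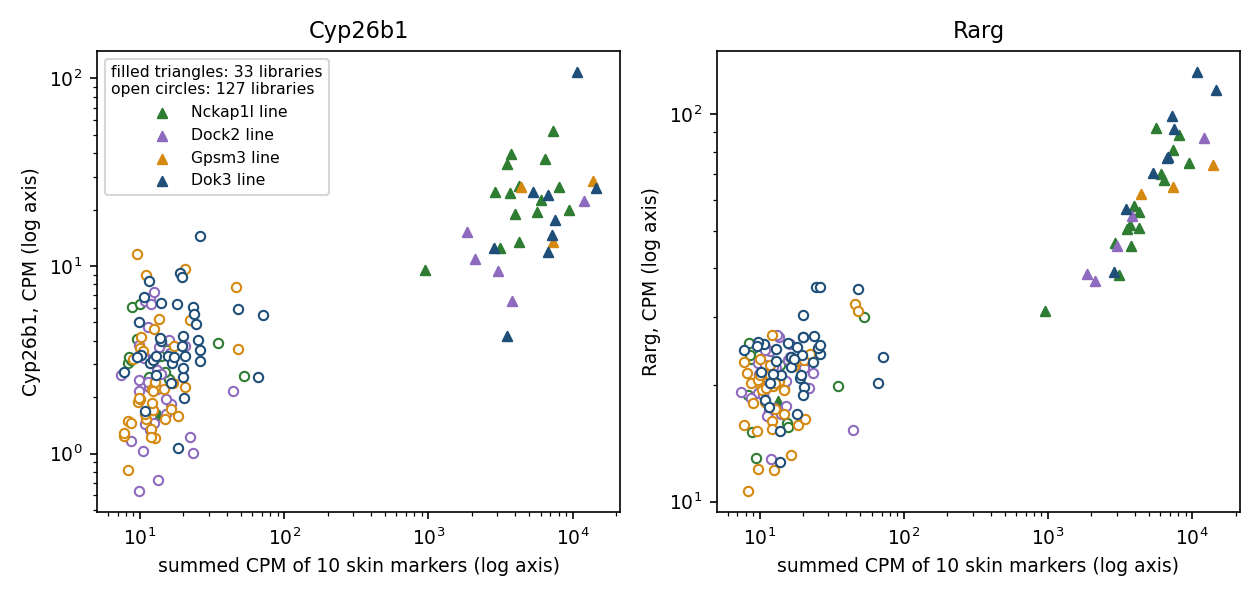
*Cyp26b1* (left) and *Rarg* (right) in CPM against the summed CPM of 10 skin markers, all axes logarithmic, coloured by line, with the 33 skin-marker libraries as filled triangles. Within the triangles both genes rise with the marker sum, and the 127 open circles stay at or under 14.4 CPM for *Cyp26b1* and 35.9 CPM for *Rarg*.

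Between knockout and wild type in the other 3 lines, 0 of the 9 tested genes passed an adjusted p under 0.05 in edgeR's quasi-likelihood test. The shares of all tested genes called were 0.0% in the *Nckap1l* line, 0.034% in *Dock2* and 0.00569% in *Gpsm3*, so a count of 0 among 9 is no result about these genes. At an unadjusted p under 0.05, 807, 900 and 854 genes passed and none of the 9 did. DESeq2 and limma-voom also called none of the 9.

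*Cyp26b1* was at a median of 9.50 CPM (2.59 to 37.2, n = 15) in *Nckap1l*-line wild types and 6.16 CPM (1.599 to 52.2, n = 16) in knockouts, and the log2 ratio was 0.56 with a standard error of 0.495 (adjusted p = 0.9996). The groups overlapped over most of their range. In the *Dock2* line the medians were 2.95 CPM (1.23 to 15.3, n = 24) and 2.06 CPM (0.628 to 22.1, n = 18), with a fold change of -0.22 (0.379). In the *Gpsm3* line they were 2.74 CPM (0.822 to 28.4, n = 20) and 1.88 CPM (1.28 to 26.4, n = 20), with a fold change of -0.037 (0.431). Over the 9 genes the median fold change was 0.27 in *Nckap1l*, -0.015 in *Dock2* and 0.0079 in *Gpsm3*, beside 0.0083, -0.0028 and 0.0032 over all genes.

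*Aldh1a2* stood at 0.52 (standard error 0.281, unadjusted p = 0.0740) in the *Nckap1l* line, 0.13 (0.165) in *Dock2* and 0.145 (0.207) in *Gpsm3*. *Aldh1a3* stood at -0.52 (standard error 0.486) in *Dock2*, 0.68 (0.351, unadjusted p = 0.0589) in *Gpsm3* and 0.27 (0.523) in *Nckap1l*. In *Nckap1l* the value turned to -1.72 (0.468, adjusted p = 0.161) without the skin-marker libraries, where *Aldh1a3* ran from 9.01 to 193.9 CPM in 7 wild types and from 11.3 to 37.5 CPM in 8 knockouts. Of the 59 other pathway genes, 51 to 54 were tested per line and 0 passed in edgeR.

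Wild-type males of the *Dok3* line were compared with wild-type males of the 3 C57BL6/J lines (7 *Nckap1l*, 12 *Dock2* and 20 *Gpsm3*). Strain, line and DSS dose differ together here and cannot be told apart, and the *Dok3*-line wild types are the controls of the contrast that chose the genes. *Cyp26b1* is left out of the tests here, since its values in these wild types chose the genes. Of the others, *Dhrs3*, *Rara*, *Aldh1a1*, *Aldh1a3* and *Rarg* were higher in the *Dok3* line with adjusted p under 0.05, and 0 were lower. Of all 19603 genes 16.1% were called, 8.97% higher and 7.16% lower. *Cyp26b1* was fitted as well and is not counted among these calls. *Dhrs3* had a median of 53.9 CPM (37.8 to 120.9, n = 21) against 44.6 CPM (23.95 to 61.5, n = 39), and the log2 ratio was 0.46 with a standard error of 0.101 (edgeR adjusted p = 0.000719). The ranges overlapped. For *Rara* the medians were 46.5 CPM (39.6 to 77.6) and 42.7 CPM (25.8 to 59.8), a fold change of 0.19 (0.0618, adjusted p = 0.0284).

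*Aldh1a1*, at medians of 44.7 CPM (14.95 to 89.8) and 34.4 CPM (12.5 to 74.3), differed by 0.49 (0.171, adjusted p = 0.0396). *Aldh1a3* (1.08, 0.362, adjusted p = 0.0317) and *Rarg* (0.69, 0.208, adjusted p = 0.0153) also passed. The difference of *Cyp26b1*, 1.14 (standard error 0.395), is a description with no test, since the same wild-type values chose the genes. Skin-marker libraries were 5 of the 21 *Dok3*-line wild types and 6 of the 39 others, and the 10 skin markers had a median log2 fold change of 1.33, with none past the threshold. Without such libraries, where 2543 of all 19179 genes were called, 2 calls were left. They were *Aldh1a1* (0.68, edgeR adjusted p = 0.0162) and *Rara* (0.22, adjusted p = 0.0428), and the value of *Cyp26b1* was 0.65 (standard error 0.267). With the skin marker score as a covariate there were 4, beside 3504 of all 19603 genes: *Dhrs3* (0.42, edgeR adjusted p = 0.00192), *Rarg* (0.33, adjusted p = 0.00653), *Rara* (0.19, adjusted p = 0.0288) and *Aldh1a1* (0.48, adjusted p = 0.0392). With males labelled knockout in place of wild types, which for the *Dok3* line are the other arm of that contrast, 3 genes passed, beside 2775 of all 19208. They were *Aldh1a1* (0.73, edgeR adjusted p = 0.000752), *Dhrs3* (0.31, adjusted p = 0.0130) and *Rara* (0.18, adjusted p = 0.0458). The value of *Cyp26b1* was then 0.23 (standard error 0.318).

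Among 55 tested pathway genes outside the 10, 12 were higher and 3 lower in *Dok3*-line wild types, where 8.97% of all genes were higher and 7.16% lower, with a median log2 fold change of 0.10 beside 0.019 over all genes. Of the 12 higher genes, 5 serve uptake and storage, a list with 12 genes tested. The 3 with the smallest adjusted p were *Rbp7*, a cellular retinol-binding protein (1.00, standard error 0.165, edgeR adjusted p = 6.86e-06), *Lrat*, which esterifies retinol for storage (0.93, 0.187, adjusted p = 0.000214), and the transcription cofactor *Trim24* (-0.24, 0.0533, adjusted p = 0.000952). Their median levels over the series were 0.951, 1.88 and 99.8 CPM, so that *Rbp7* lay not far above the floor of 3 counts. These pathway counts are from all libraries, skin-marker libraries included.

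Between females and males of the *Nckap1l* and *Dock2* lines, 0 of the 9 genes passed an adjusted p under 0.05, where edgeR called 0.178% and 9.75% of all genes. At an unadjusted p under 0.05 in edgeR, *Cyp26b1*, *Rarg* and *Dhrs3* passed in *Nckap1l*, where 2823 of all 17947 genes did. In *Dock2*, *Dhrs3* passed at that cutoff, where 4521 of all 17648 genes did. DESeq2 and limma-voom called none of the 9 at the adjusted threshold. In *Nckap1l* the log2 difference of *Cyp26b1* was 1.30 (standard error 0.497, adjusted p = 0.214), and skin markers had a median difference of 1.33 between the same samples. Among the *Dock2* pathway genes, 2 of 51 were higher in females: *Bco2*, which cleaves carotenoids (0.62, 0.184, adjusted p = 0.0250), and *Stra6*, a receptor for the retinol-binding protein (1.06, 0.321, adjusted p = 0.0298).

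The synthesis genes followed the inflammation of the tissue in opposite directions. As the treatment of each mouse is unknown, the mean log2 CPM of 8 inflammation markers (*S100a8*, *S100a9*, *Cxcr2*, *Csf3r*, *Il1b*, *Cxcl2*, *Lcn2*, *Saa3*) served as a continuous score, which ran from -1.97 to 10.1. In a model over 160 libraries with group and sex, *Aldh1a3* rose by 0.47 on the log2 scale per unit of score (standard error 0.0204, edgeR adjusted p = 7.99e-50) and *Aldh1a2* by 0.20 (0.0162, adjusted p = 6.43e-24). *Aldh1a1* fell by 0.14 per unit (0.0148, adjusted p = 1.10e-15). With 76.8% of all 19849 genes called, 40.2% higher and 36.5% lower, the 8 calls among 9 genes are near the background.

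**Figure D4:**
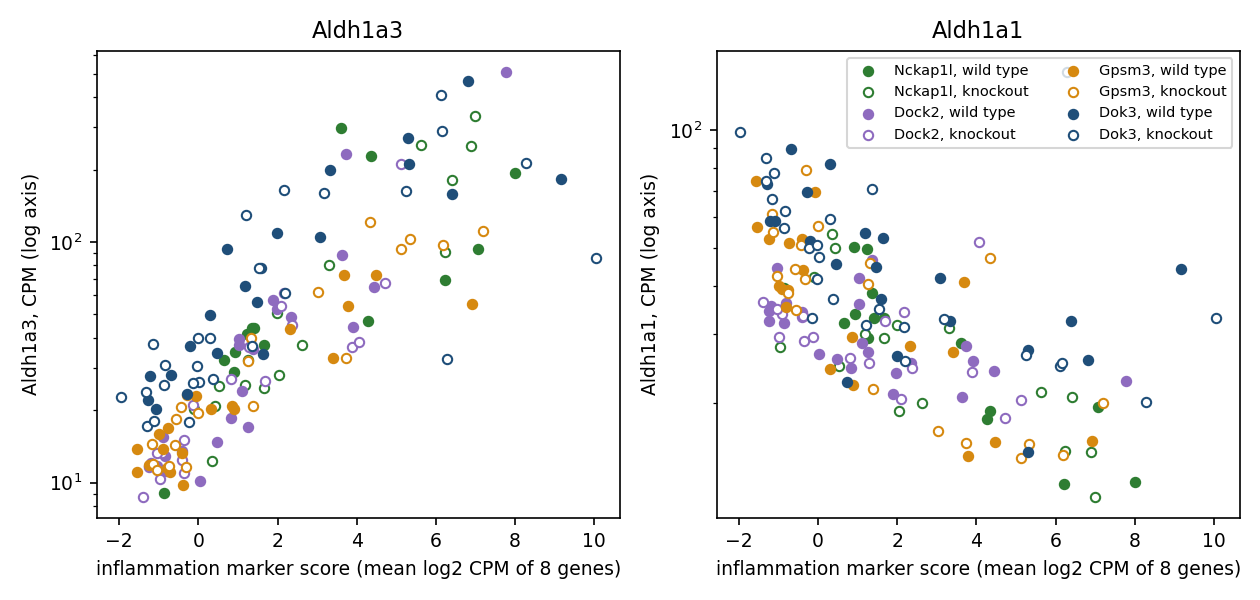
*Aldh1a3* (left) and *Aldh1a1* (right) in CPM on log axes against the inflammation marker score in 160 libraries, coloured by line, with wild types filled and knockouts open. *Aldh1a3* climbs with the score, with a slope of 0.47 on the log2 scale per unit, whereas *Aldh1a1* declines, with a slope of -0.14.

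In the library with the lowest score, from the *Dok3* line, *Aldh1a1* was at 99.2 CPM and *Aldh1a3* at 22.8 CPM. In the one with the highest score, also of this line, they were at 33.03 and 85.81 CPM. The slopes held in each line fitted alone. For *Aldh1a3* they were 0.51 in *Nckap1l*, 0.62 in *Dock2*, 0.41 in *Gpsm3* and 0.40 in *Dok3*, and for *Aldh1a1* -0.20, -0.087, -0.22 and -0.095, all with an adjusted p under 0.05. *Aldh1a2* ranged from 0.12 to 0.29 over the 4 lines, also past the threshold in each. Without the skin-marker libraries the slopes were 0.42 for *Aldh1a3*, 0.20 for *Aldh1a2* and -0.12 for *Aldh1a1*. Markers of other cells moved with the score: 8 of 8 fibroblast markers rose (median slope 0.16) and 7 of 11 epithelium markers fell (median -0.054). With the epithelium and smooth muscle marker scores as covariates, the slopes were 0.49, 0.20 and -0.10.

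*Dhrs3* rose by 0.088 per unit of score (standard error 0.00815, edgeR adjusted p = 8.23e-20) and *Rara* by 0.040 (0.00617, adjusted p = 4.11e-09), and *Nr2f2* fell by 0.017 (0.00627, adjusted p = 0.0115). *Rarb* had a slope of 0.019 (0.00950, adjusted p = 0.0637). *Cyp26b1* (0.14, 0.0432, adjusted p = 0.00211) and *Rarg* (0.13, 0.0206, adjusted p = 7.16e-09) also passed. All 10 skin markers rose with the score, by a median of 0.93 per unit. Without the skin-marker libraries *Rarg* had a slope of 0.048 (adjusted p = 4.12e-06) and *Cyp26b1* of 0.056 (adjusted p = 0.0603), and with the skin marker score as a covariate *Cyp26b1* had one of 0.00070 (adjusted p = 0.980). With the epithelium and smooth muscle marker scores as covariates its slope was -0.037 (adjusted p = 0.382) and that of *Rarg* 0.022 (adjusted p = 0.223). In single lines *Rarg* passed in *Dock2* and *Dok3* (adjusted p = 0.00955 and 5.27e-05) and not in *Nckap1l* and *Gpsm3* (adjusted p = 0.0944 and 0.0651).

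**Figure D5:**
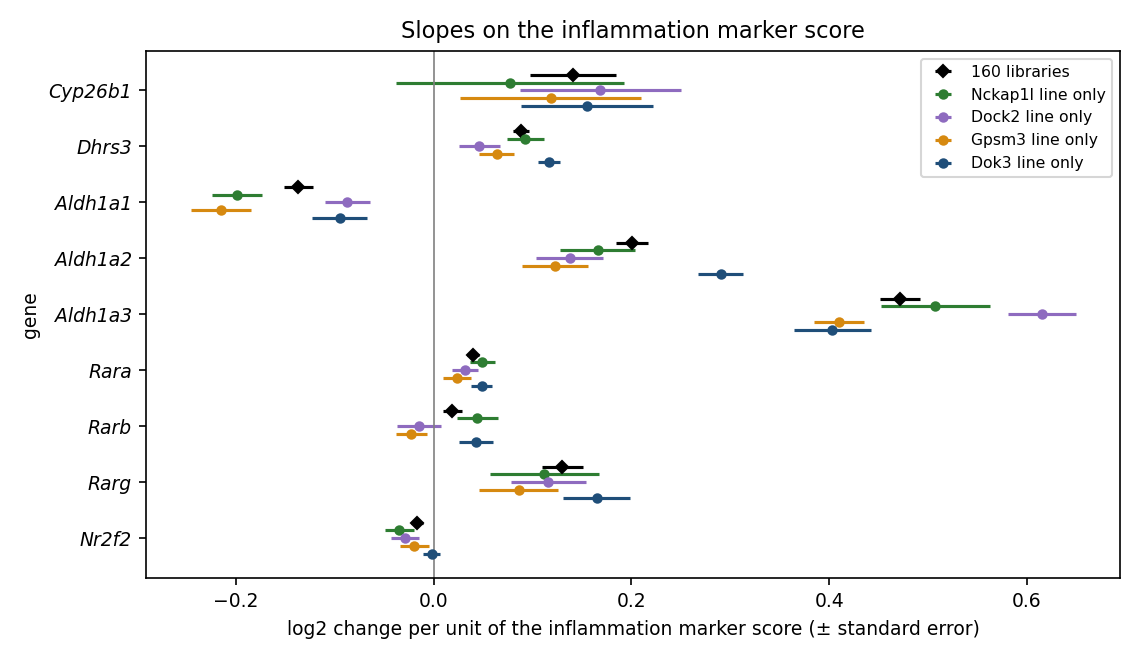
Log2 change per unit of the inflammation marker score for 9 genes, with standard errors, over 160 libraries (diamonds) and in each line alone (circles). *Aldh1a3* lies between 0.40 and 0.62 and *Aldh1a1* between -0.22 and -0.087 in the 4 lines, and *Cyp26b1* has the widest errors.

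Of 55 tested pathway genes outside the 10, 23 rose and 25 fell with the score, near the share of all genes called (76.8%). The smallest adjusted p belonged to *Tgm2*, a transglutaminase induced by retinoic acid (0.21, standard error 0.00732, adjusted p = 7.62e-61), *Adh1*, an alcohol dehydrogenase that oxidizes retinol (-0.22, 0.0106, adjusted p = 3.23e-45), and *Dhrs9*, a retinol dehydrogenase (0.60, 0.0292, adjusted p = 6.97e-44). By list, 9 of 13 tested response genes rose and 2 fell, and 9 of 12 retinoid X receptors and cofactors fell and 1 rose, where 40.2% of all genes rose and 36.5% fell. Of 14 retinol and retinal dehydrogenases 6 rose and 7 fell, of 12 uptake and storage genes 4 rose and 6 fell, and of 4 binding and breakdown genes 3 rose and 1 fell.

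The genes most like each member were ranked by Pearson correlation of log2 CPM, after the mean of each line and genotype was subtracted, among 14515 genes. These correlations share libraries and depth and are given as a description. Over 160 libraries the 5 genes nearest *Cyp26b1* were *Dsc3* (r = 0.807), *Col17a1* (0.796), *Sbsn* (0.791), *Dmkn* (0.789) and *Psapl1* (0.788). *Dsc3*, *Col17a1* and *Sbsn* are expressed in stratified epithelium, and *Sbsn* is among the 10 skin markers.

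In the 127 libraries outside the skin-marker group, a ranking added after the data were seen, the gene nearest *Cyp26b1* was *Dhrs3* (r = 0.504), another of the 10, followed by *Tmem88* (0.365). The gene nearest *Aldh1a3* there was *Rdh10*, the retinol dehydrogenase that supplies retinal to the *Aldh1a* enzymes (r = 0.914), followed by *Capg* (0.888) and *Itgav* (0.887). Over 160 libraries *Itgav* (0.912) and *Capg* (0.902) were nearest *Aldh1a3*, and *Rdh10* was not among the nearest 5. *Rdh10* rose with the inflammation score too, by 0.18 per unit (standard error 0.00907). In the 127 libraries *Aldh1a1* was nearest to *Ugdh* (0.834). Among the 10 genes themselves, the pairs farthest from 0 in these 127 libraries were *Aldh1a1* with *Aldh1a3* (r = -0.656), *Rara* with *Rarg* (0.636) and *Rarg* with *Dhrs3* (0.601).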

How the data were processed

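Distal colon RNA was sequenced with a stranded kit after ribosomal RNA depletion, as single reads of 100 bases. Per the submitters' processing notes, the authors used STAR, Subread featureCounts and mm10. The deposited values are raw counts of reads per gene, 1 file per library, and the strand setting is not given in the sources used here. Genes were named from GENCODE vM21 on GRCm38 (96.2% matched, 99.67% of counts). After TMM scaling and removal of low genes (filterByExpr), edgeR 4.0.16 under R 4.3.3 fitted its quasi-likelihood model, and a Benjamini-Hochberg adjusted p under 0.05 was the threshold. DESeq2 1.42.0 and limma-voom (limma 3.58.1), size factors, filters, covariates and subsets of libraries were alternatives. The skin marker score as a covariate, the fits within a block and the values without the highest *Cyp26b1* or *Dok3* library were added after seeing the data. Scripts were tested on simulated data with 200 genes changed. For knockout in *Dock2* 94.5% of these were recovered, and 6.9% of calls were false. The shares were 89% and 11% for *Dok3*-line against other wild-type males, and 99% and 8.3% for the slope on the inflammation score. The false shares were thus above what the threshold of 0.05 allows for. Recovery of smaller changes was not simulated. Members and lists were chosen with earlier results of these data known. The text names all 10 members, per comparison up to 3 pathway genes with the smallest adjusted p, and the 5 genes most like a member. *Tmem88*, the neighbours of the members in the 127 libraries, and the pairs among members were chosen after their values were seen. Nothing says that mice of a group were raised apart, so p-values measure the spread between these samples. Depth limits *Cyp26a1* most, and the floor of 3 counts covers counting error only.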

Additional observations from a re-analysis of the deposited data

Results flagged for a closer look

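Within groups of 4 to 10 libraries of the same line, genotype, sex and sample-number block, the highest or lowest library was compared with the others by Dixon's ratio. Of 108 such tests 10 passed, where chance flags about 1 in 20, and 5 of the 10 lie in skin-marker libraries.

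*Rarg* accounts for 3 of them, all in skin-marker libraries. It reached 86.7 CPM in a *Dock2*-line knockout female (others 16.8 to 24.6), 73.9 CPM in a *Gpsm3*-line wild type (others 10.6 to 23.4) and 74.7 CPM in an *Nckap1l*-line knockout male (others 15.1 to 23.3). The same *Gpsm3*-line library had *Aldh1a2* at 4.48 CPM (others 1.603 to 2.668), and the same *Nckap1l*-line library had *Dhrs3* at 77.1 CPM (others 40.5 to 48.6).

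The other 5 lie outside the skin-marker libraries. *Cyp26b1* stood at 11.6 CPM in a *Gpsm3*-line knockout (others 1.53 to 3.66), whose summed skin markers were 9.60 CPM. *Rara* stood at 77.6 CPM in a *Dok3*-line wild type (others 39.6 to 52.1), which had an inflammation score of 9.16. *Rarb* stood at 9.50 CPM in a *Gpsm3*-line wild type (others 7.21 to 8.14). *Nr2f2* was lowest at 37.3 CPM in a *Dock2*-line knockout male (others 46.3 to 57.6) and highest at 45.1 CPM in an *Nckap1l*-line wild-type male (others 39.4 to 40.0).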

How the results depend on the processing

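Under alternatives, 716 log2 fold changes of the tested genes were counted as unchanged. These include 111 values of the partners of *Cyp26b1* in the *Dok3*-line knockout contrast, where no threshold was applied. Those counted as unchanged when they moved by less than the SD of the gene within groups, even with a turned sign. The rest of the 716 kept their direction and their side of the threshold. Outside that contrast 34 values no longer passed the threshold, 5 newly passed it and 58 changed sign. *Cyp26b1* in the *Dok3* line kept its direction in all 14 alternatives, and of 111 values of its 8 partners there 101 kept their sign and 10 did not. The number of genes past the threshold stayed within 1.5 times in 71 cases and moved in 8. Of *Dok3*-line against other wild-type males, it was 3 in limma-voom (2867 of all 19603 genes called) and 3 without a filter beyond 1 count (3477 of 32116). The number was 2 without the skin-marker libraries (2543 of 19179) and 3 with knockout males (2775 of 19208). The main number of this comparison includes *Cyp26b1*, whose values in these wild types chose the genes. With the score the number was 5 in the *Dock2* line (9692 of all 17648 genes called) and 4 in the *Gpsm3* line (9504 of 17560). Between *Dock2*-line females and males it was 1 without the skin-marker libraries (*Aldh1a3*, -1.23, edgeR adjusted p = 0.0439), beside 3202 of all 17525 genes. With the inflammation score it was 1 (*Dhrs3*, 0.26, edgeR adjusted p = 0.0483), beside 1789 of all 17648. Over all genes and alternatives, edgeR, DESeq2 and limma-voom called between 0 and 1334 for knockout in *Nckap1l*, 0 and 79 in *Dock2*, 0 and 32 in *Gpsm3* and 0 and 17 in *Dok3* (17 in block 2). The ranges were 9 to 240 and 1469 to 3202 for sex in *Nckap1l* and *Dock2*, 2175 to 5060 between wild-type males and 8689 to 17981 for the score. Values that changed sign follow, and the cause was not tested. In the *Dok3* line the sign turned without the skin-marker libraries (*Aldh1a2* -0.17 and *Rarb* 0.082), in limma-voom (*Aldh1a2* -0.019), with the inflammation score (*Dhrs3* 0.010), with tissue marker scores (*Rarb* 0.026), with the skin score (*Rarb* 0.076 and *Dhrs3* 0.040), in block 1 (*Rara* 0.014 and *Dhrs3* 0.063) and in block 2 (*Aldh1a2* -0.63). For knockout against wild type in the *Nckap1l* line the sign turned without the skin-marker libraries (*Aldh1a1* 0.40, *Aldh1a2* -0.10, *Aldh1a3* -1.72 and *Dhrs3* -0.018), with tissue marker scores (*Aldh1a1* 0.30 and *Aldh1a3* -0.67), in limma-voom (*Aldh1a3* -0.040), with the inflammation score (*Aldh1a3* -0.18), with the skin score (*Aldh1a3* -0.27), in males (*Aldh1a3* -0.018). For knockout against wild type in the *Dock2* line the sign turned without the skin-marker libraries (*Aldh1a1* 0.074, *Aldh1a2* -0.00075 and *Rarb* 0.094), in males (*Aldh1a2* -0.024 and *Rarg* -0.26), with tissue marker scores (*Rara* 0.0022 and *Rarb* 0.067), with the skin score (*Rara* 0.0051 and *Rarb* 0.063), in limma-voom (*Rarb* 0.0048 and *Rarg* -0.032), with the inflammation score (*Rarg* -0.040). For knockout against wild type in the *Gpsm3* line the sign turned with the inflammation score (*Aldh1a1* 0.11 and *Dhrs3* -0.048), with tissue marker scores (*Aldh1a1* 0.034 and *Dhrs3* -0.0085), without the skin-marker libraries (*Dhrs3* -0.013). For females against males in the *Nckap1l* line the sign turned without the skin-marker libraries (*Aldh1a1* 0.37, *Aldh1a3* -0.97 and *Rara* -0.17), with tissue marker scores (*Aldh1a1* 0.20, *Aldh1a2* -0.037, *Aldh1a3* -0.065 and *Rara* -0.11), with the skin score (*Aldh1a3* -0.048 and *Rara* -0.051), with the sample-number block (*Rara* -0.011 and *Nr2f2* -0.10). For females against males in the *Dock2* line the sign turned in DESeq2 (*Cyp26b1* 0.0045), with the inflammation score (*Cyp26b1* 0.054 and *Aldh1a3* 0.38), without the skin-marker libraries (*Aldh1a1* 0.077, *Rara* -0.0017 and *Rarg* -0.070), with tissue marker scores (*Rarb* -0.0010 and *Rarg* -0.24), in limma-voom (*Rarg* -0.041). For *Dok3*-line against other wild-type males the sign turned against the Gpsm3 line alone (*Aldh1a2* 0.060), without the skin-marker libraries (*Rarb* -0.052), with tissue marker scores (*Rarb* -0.0020), with the skin score (*Rarb* -0.030). For the slope on the inflammation score the sign turned with tissue marker scores (*Cyp26b1* -0.037 and *Rarb* -0.016), without the skin-marker libraries (*Rarb* -0.011), with the skin score (*Rarb* -0.0070), in wild types (*Rarb* -0.0045), in the Dock2 line (*Rarb* -0.015), in the Gpsm3 line (*Rarb* -0.023). No paired analysis was possible because the labels give no replicate numbers that groups share.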
